A study of Mus musculus with 12 samples.

Results

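Small nucleolar RNA (snoRNA) host genes are described here in mouse bone marrow-derived macrophages (BMDMs), cells differentiated in culture from bone marrow in medium conditioned by the L929 fibroblast line. The members were 9 long noncoding hosts chosen by symbol (Gas5, Snhg1, Snhg3, Snhg4, Snhg5, Snhg6, Snhg8, Snhg12 and Snhg15). Of these, 8 were matched among 48526 gene identifiers of the count table through the GENCODE annotation of GRCm38. Snhg4 was not matched under its symbol and was not analysed here. All 8 matched members were tested, since all passed the filter on low counts. BMDMs came from mice homozygous for the HSS9 knockout (KO), a deletion upstream of Tnf, or from HSS9+/+ controls (WT). They received PBS for 6 hr (untreated, UT) or lipopolysaccharide (LPS), an endotoxin of Gram-negative bacteria sensed through Toll-like receptors, also for 6 hr. Genotype and treatment gave 4 groups (WT and KO, each UT or LPS), with 3 total RNA libraries each. The WT mice are littermates by the labels. The methods of the study name purchased C57BL/6 mice without saying whether these were the controls here. By the same methods the KO line was kept as homozygous pairs, so line and genotype cannot be told apart. Only young adult male mice were used by those methods.

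A snoRNA host gene is transcribed and spliced like a messenger RNA, and its snoRNAs are trimmed out of the excised introns. The snoRNAs of the box C/D kind guide methylation of ribosomal RNA and those of the H/ACA kind guide pseudouridylation or take part in ribosomal RNA cleavage. Several hosts start with a run of pyrimidines of the kind found at the start of ribosomal protein messages (a 5′ terminal oligopyrimidine, or TOP, start). The spliced noncoding RNA that is left is often read briefly by ribosomes and destroyed by nonsense-mediated decay, the pathway that removes messages with early stop codons. Gas5, the best known member, was named for its accumulation in growth-arrested cells and can also act as a decoy for the glucocorticoid receptor. In macrophages, LPS recasts both transcription and translation, which is the setting in which these RNAs were compared.

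Stretches around the RefSeq starts are shown because the TOP start is the sequence feature for which this gene group is known. RefSeq promoters of GRCm38.p6 were given for 7 of the 8 members, and each line holds the 10 bases before the start and the first 20 bases of the transcript. Capitals mark a C followed by at least 4 bases that are each C or T, on the transcribed strand only, beginning within 5 bases of the start.
Snhg8: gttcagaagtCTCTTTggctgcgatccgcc
Gas5: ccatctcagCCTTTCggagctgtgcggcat
Snhg12: ttctcagtCCTTTCTCgcttcatccgcggt
Snhg3: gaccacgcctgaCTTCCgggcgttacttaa
Snhg5: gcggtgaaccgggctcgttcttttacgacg
Snhg15: ctgtgaccgtaactttaagcacacgtgagc

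The Snhg8 stretch is chr3:123508317-123508346 on the minus strand, and its run begins at the annotated first base. The Gas5 stretch, the second of its 2 RefSeq starts, is chr1:161035156-161035185 on the plus strand. The others are chr4:132308668-132308697 (plus) for Snhg12, chr4:132353667-132353696 (minus) for Snhg3, chr9:88522878-88522907 (minus) for Snhg5 and chr11:6528741-6528770 (minus) for Snhg15. Such a run was present in 4 of 8 member windows (50%, with 2 windows for Gas5), against 18.3% of 32851 mouse promoters and 41.7% of 72 promoters of cytosolic ribosomal protein genes. Snhg1 and the upstream start of Gas5 had no run by this rule, and annotated starts can lie some bases away from those used in BMDMs, so a missing match says only that the letters are not in this window.

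In GRCm38 the members lie at chr1:161034422-161038539 (Gas5, plus strand), chr19:8723475-8726443 (Snhg1, plus), chr4:132348014-132353686 (Snhg3, minus), chr9:88521050-88522929 (Snhg5, minus), chr1:9941959-9944118 (Snhg6, minus), chr3:123507552-123508404 (Snhg8, minus), chr4:132308623-132311024 (Snhg12, plus) and chr11:6525591-6528760 (Snhg15, minus). All are annotated as long noncoding genes. Their bounds hold 30 snoRNA genes on the same strand, 10 in Gas5, 8 in Snhg1, 5 in Snhg12, 2 each in Snhg3 and Snhg5, and 1 each in Snhg6, Snhg8 and Snhg15. Exons of Snhg3 share 135 bases with Rcc1 on the same strand and 71.5% of their length with the antisense gene Gm17300, and 11.1% of Snhg6 exons lie opposite Mcmdc2. How shared reads were assigned is not given in the sources used here, so the values of Snhg3 and Snhg6 carry that uncertainty. Gm17300 had at most 16 counts in a library. Mcmdc2 rose with LPS from 0.633 to 6.18 CPM in WT and from 0.819 to 4.56 CPM in KO (log2 fold changes 3.27 and 2.46, edgeR adjusted p 1.42e-10 and 1.79e-08). Rcc1 fell with LPS in both genotypes (log2 fold change -0.88, edgeR adjusted p 5.19e-05 for WT, and -0.71, edgeR adjusted p 5.12e-04 for KO).

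Levels are given as CPM, in which TMM factors scale the counts of every library to one size. The factors were 1.289 to 1.294 in WT UT and 1.155 to 1.176 in KO UT. After LPS they were 0.8115 to 0.8177 in WT and 0.8134 to 0.8216 in KO. They differed most between UT and LPS, so fold changes with LPS depend on this scaling. Gas5 was the most counted member, with 64.7 ± 2.91 CPM (SD, n = 3) in WT UT, and it made up 46.1% of the summed CPM of the members there. Per kb of annotated exon, Snhg8 (17.9 ± 2.15 CPM per kb, SD, n = 3) and Gas5 (17.2 ± 0.773, SD, n = 3) were highest in WT UT, and they did not differ beyond their spread. Snhg6 followed at 14.7 CPM per kb, then Snhg3 (6.72) and Snhg5 (6.45), a pair within its spread, Snhg15 (5.34), Snhg1 (3.95) and Snhg12 (2.88). Per kb, Gas5 and Snhg8 stood above 87.1% and 87.7% of tested genes in WT UT, and Snhg12 above 49.4%. Many Gas5 transcripts in the annotation keep an intron (20 of 25), so 91.3% of the gene is annotated as exon and intronic reads enter its count.

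**Figure D1:**
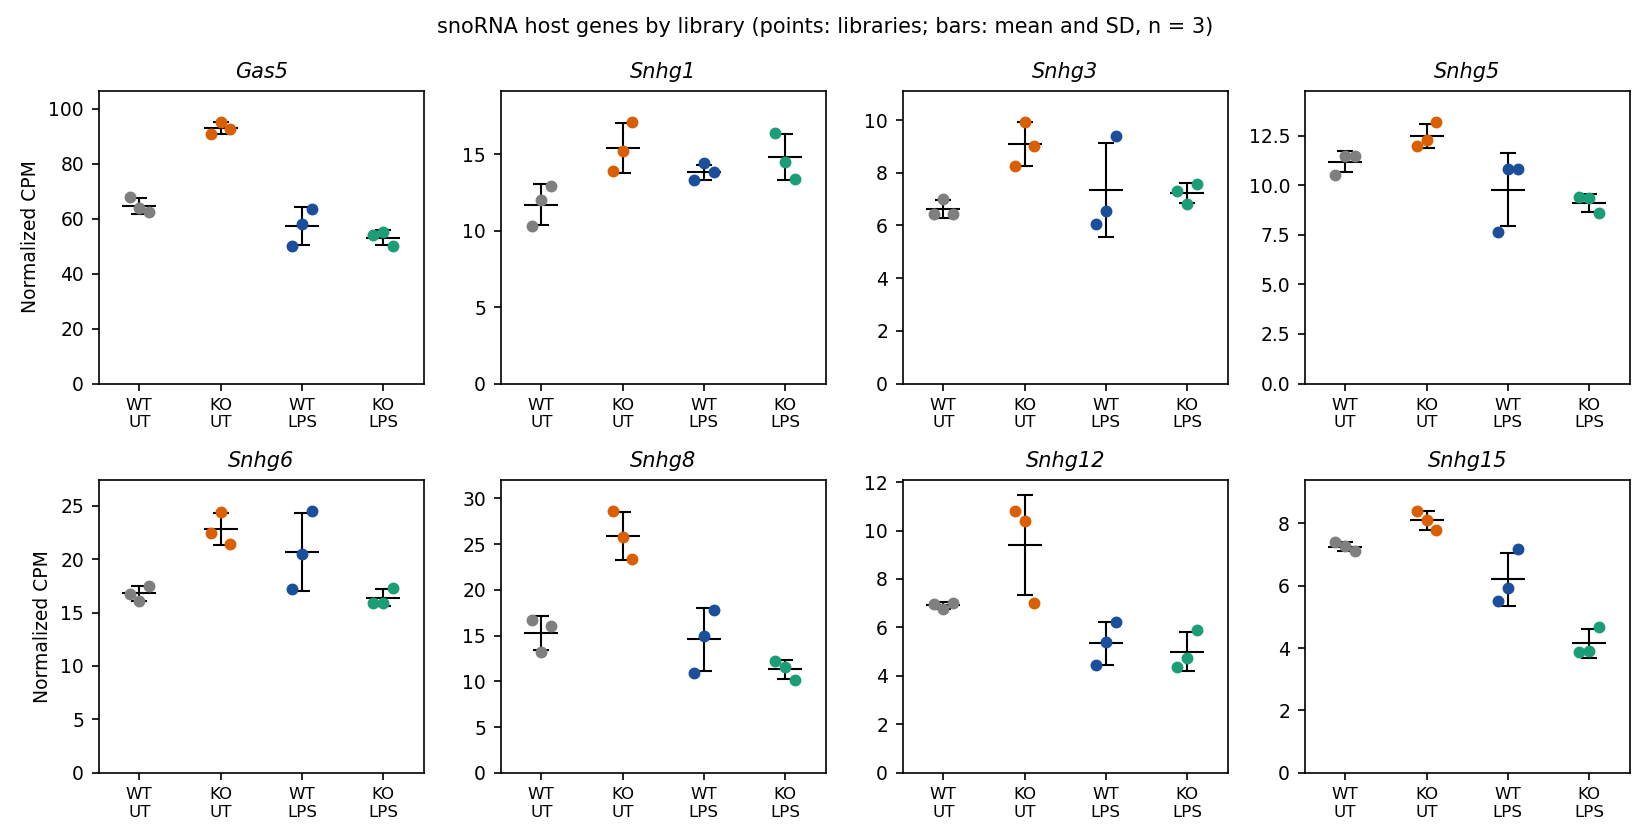
Normalized CPM (y axis, from 0) of the 8 host genes in the 4 groups (x axis), with points for libraries and bars for the mean and SD of 3 libraries. Gas5 and Snhg8 in KO UT sit above every library of the other 3 groups, and Snhg15 in KO LPS sits below every other library.

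Facts of the whole series that touch these values come first. Library totals ranged from 26154533 to 36423921 counts. Tnf, taken here as the readout of the deletion, was at 890 ± 57.4 CPM (SD, n = 3) in WT LPS and 432 ± 15.2 CPM (SD, n = 3) in KO LPS. Macrophage markers were all detected. They summed to 28908 to 29983 CPM in WT UT and 33310 to 34417 CPM in KO UT. After LPS the sums were 27940 to 29482 CPM in WT and 30233 to 32099 CPM in KO. Of 8 tested, 5 were higher and 1 lower in KO UT than in WT UT, and 5 were higher and 0 lower after LPS. Small structured RNA genes (small nuclear, nucleolar, ribosomal and related types) took 4.3% to 4.48% of counts in WT UT, 8.04% to 9.14% in KO UT, 4.97% to 7.71% in WT LPS and 4.33% to 4.43% in KO LPS. The share separated KO UT from WT UT without overlap, so a genotype difference in UT and this difference in library content cannot be told apart. Neutrophil markers summed to 20.5 to 22 CPM in WT UT and 42.6 to 48.1 CPM in KO UT, with 4 of 6 tested markers higher and Ly6g at 0 in every library. They summed to 50.5 to 79.6 CPM in WT LPS and 67.3 to 76.8 CPM in KO LPS. S100a8 supplied most of the sum after LPS (means of 52.7 CPM in WT LPS and 56.8 CPM in KO LPS). Camp also rose with LPS, whereas the means of S100a9, Ltf and Ngp fell in both genotypes. Stromal markers summed to 4.82 to 5.32 CPM in WT UT, 5.2 to 6.82 in KO UT, 21.8 to 24.1 in WT LPS and 26.7 to 28.9 in KO LPS. Pdgfrb supplied most of the sum after LPS (mean 0.966 CPM in WT UT, 19.8 in WT LPS, 1.26 in KO UT and 19.7 in KO LPS). In WT the means of Col1a1, Col1a2 and Col3a1 fell with LPS, and those of Dcn, Pdgfra and Thy1 rose. After LPS, 4 of 6 tested stromal markers were higher in KO. B cell markers summed to 0.135 to 1.91 CPM across libraries. T cell markers were near 0 apart from Lck, which supplied most of the T cell sum of 6.36 to 8.33 CPM after LPS, with Cd3g at 0 in both LPS groups. The part of these cells in the results was not tested. In bulk RNA, fewer cells of a type and less RNA per cell cannot be told apart.

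The first comparison asked how the members differed between genotypes without LPS. Of 8 members, 6 were higher in KO UT than in WT UT and 0 were lower at an edgeR adjusted p below 0.05, while 14.1% of all 15523 genes tested were called higher and 9.69% lower. The median log2 fold change was 0.44 for the members and 0.00 for all genes. At the fold minimum of the study (absolute log2 fold change above 1), 0 of 8 members were called and 1.02% of all genes were called higher. Separation without overlap was seen for 7 of 8 members, all higher in KO UT, against 21.6% of all genes.

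Gas5 was at 68, 63.9 and 62.3 CPM in the WT UT libraries and 90.8, 95.2 and 92.7 CPM in the KO UT libraries. All 3 KO libraries thus lay above all 3 WT libraries, 1.43-fold on average (log2 fold change 0.52, SE 0.0685, edgeR adjusted p 9.26e-06). Snhg8, the host of the H/ACA snoRNA Snora24, was at 16.7, 13.2 and 16 CPM in WT UT and 28.6, 25.8 and 23.4 CPM in KO UT. Its groups did not overlap and its change was the largest among the members (log2 fold change 0.76, SE 0.123, edgeR adjusted p 8.67e-05). Snhg6, the host of the box C/D snoRNA Snord87, was at 16.7, 16.1 and 17.5 CPM in WT UT and 22.5, 24.4 and 21.4 CPM in KO UT. The log2 fold change was 0.44 (SE 0.0952, edgeR adjusted p 0.00159), again without overlap.

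The other members were lower in level. Snhg1, the host of Snord22, went from 10.3, 12 and 12.9 CPM in WT UT to 13.9, 15.2 and 17.1 CPM in KO UT (log2 fold change 0.39, edgeR adjusted p 0.00614). Snhg3, the host of Snora73a and Snora73b, went from 6.43, 7.02 and 6.44 CPM to 8.27, 9.93 and 9.03 CPM (log2 fold change 0.45, edgeR adjusted p 0.0132). Leaving out WT UT replicate 3 or KO UT replicate 2 took its adjusted p to 0.0503 and 0.073. Snhg12, which holds 5 snoRNA genes, was at 6.97, 6.75 and 7.02 CPM in WT UT and 10.8, 10.4 and 7.01 CPM in KO UT, so 1 KO library lay within the WT range (log2 fold change 0.44, edgeR adjusted p 0.0357). The adjusted p of Snhg12 was 0.0617 with the replicate block, 0.0709 with RLE scaling, 0.0508 with upper-quartile scaling and 0.0765 with DESeq2. It was 0.0777, 0.104, 0.08, 0.192 and 0.157 without WT UT replicates 1, 2 and 3 and KO UT replicates 1 and 2. Snhg5, the host of Snord50a and Snord50b, and Snhg15, the host of Snora9, did not pass. Their log2 fold changes were 0.16 (95% interval -0.06 to 0.39, edgeR adjusted p 0.304) and 0.16 (-0.08 to 0.39, edgeR adjusted p 0.356).

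These 6 calls were made in the samples that also differed in small RNA content. Within groups the share varied mainly in WT LPS, so a fit with it as a covariate takes its slope largely from those libraries. Such a fit cannot separate the share from the genotype in UT. With a covariate for the small RNA share in the model, 0 of 8 members passed in UT, the log2 fold change of Gas5 was 0.07 (edgeR adjusted p 0.86) and that of Snhg8 was -0.34 (edgeR adjusted p 0.534). Snhg1 stood at 0.56 (edgeR adjusted p 0.284), no smaller than without the covariate. Removing the small structured RNA genes before scaling left the median of the members at 0.44.

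**Figure D2:**
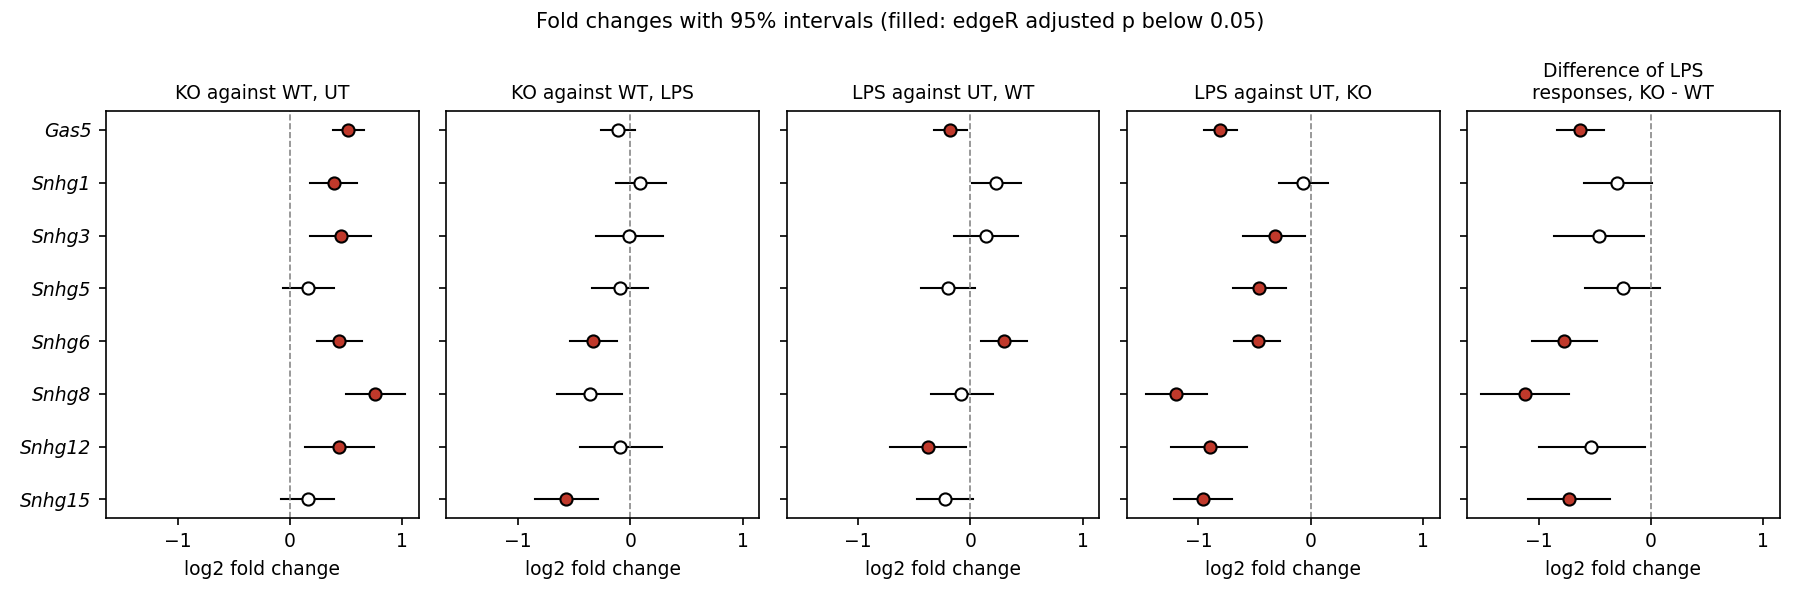
Log2 fold changes (x axis) of the 8 host genes (y axis) in the 5 comparisons, with 95% intervals as lines and filled circles where the edgeR adjusted p was below 0.05. In UT, all 8 values lie above 0, and in the LPS response of KO all 8 lie below 0.

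The second comparison asked the same after LPS. Here 2 of 8 members were lower in KO LPS than in WT LPS and 0 were higher, while 6.54% of all genes were called lower and 7.78% higher. The median log2 fold change of the members was -0.10, against -0.01 for all genes. Snhg15 was at 5.52, 5.93 and 7.16 CPM in WT LPS and 3.87, 3.9 and 4.68 CPM in KO LPS. The highest KO library was thus below the lowest WT library, an arrangement seen in 14.9% of all genes (log2 fold change -0.57, SE 0.133, edgeR adjusted p 0.00648). Snhg6 was at 17.2, 20.5 and 24.5 CPM in WT LPS and 15.9, 15.9 and 17.3 CPM in KO LPS, with overlapping groups (log2 fold change -0.33, SE 0.102, edgeR adjusted p 0.0346). Snhg6 was no longer called in a fit of the compared groups only (adjusted p 0.0838) and in 5 of the 6 fits without 1 LPS library, with adjusted p of 0.0844 and 0.222 without WT LPS replicates 2 and 3, and 0.107, 0.105 and 0.0528 without KO LPS replicates 1, 2 and 3.

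Gas5 (log2 fold change -0.11, edgeR adjusted p 0.347), Snhg8 (-0.36, edgeR adjusted p 0.0933), Snhg1 (0.09, edgeR adjusted p 0.614), Snhg3 (-0.01, edgeR adjusted p 0.977), Snhg5 (-0.09, edgeR adjusted p 0.668) and Snhg12 (-0.09, edgeR adjusted p 0.795) did not pass after LPS. The 95% interval of Gas5, -0.26 to 0.04, lay below its value in UT. Without WT LPS replicate 1, 4 of 8 members were lower in KO LPS, with Gas5 at -0.20 (edgeR adjusted p 0.0241) and Snhg8 at -0.54 (edgeR adjusted p 0.00194) added to the 2 above. With no filter on low counts, Snhg8 also passed (-0.33, edgeR adjusted p 0.0209).

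The summed level of the members was more spread in WT LPS (SD 19.1 CPM, n = 3) than in the other groups (SD 2.6 to 4.93 CPM, n = 3 each). It was 115, 137 and 153 CPM in WT LPS replicates 1, 2 and 3, beside small RNA shares of 4.97%, 6.25% and 7.71%. All 8 members were lowest in replicate 1, and 7 of 8 were highest in replicate 3. In the other groups, where the share varied less, 2 to 4 of 8 members were lowest in the library with the lowest share and 3 of 8 were highest in that with the highest. In KO LPS the sum was 118 to 124 CPM. Summed CPM of ribosomal protein genes in WT LPS moved in the same order, at 29958, 36793 and 42240. With the small RNA share as a covariate, 0 of 8 members passed between KO LPS and WT LPS, and Snhg15 was at -0.33 (edgeR adjusted p 0.335).

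**Figure D3:**
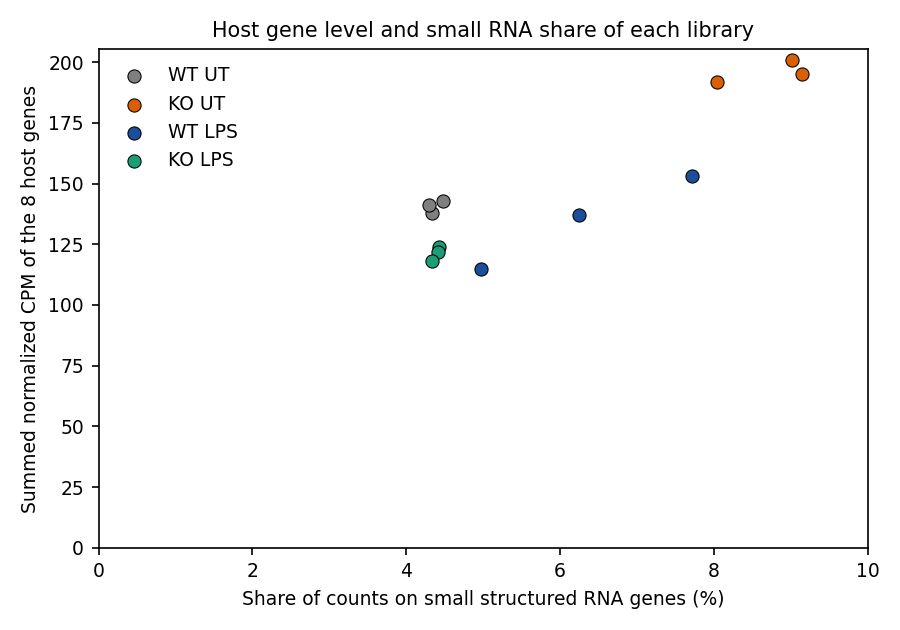
Summed normalized CPM of the 8 host genes (y axis, from 0) against the percent of counts on small structured RNA genes (x axis), 1 point for each library, colored by group. The 3 KO UT libraries lie at 8.04% to 9.14% and 192 to 201 CPM, apart from the rest, and the 3 WT LPS libraries spread from 115 to 153 CPM.

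The third question was how LPS changed the members in each genotype. In WT, 1 of 8 members was higher with LPS and 2 were lower, in a contrast where 38% of all genes were called higher and 35.3% lower. Snhg6 rose from 16.8 ± 0.7 to 20.7 ± 3.67 CPM (SD, n = 3 each) in these cells (log2 fold change 0.30, edgeR adjusted p 0.0102), although 17.2 CPM in WT LPS replicate 1 lay within the UT range. Without WT LPS replicate 3 its adjusted p was 0.128, with upper-quartile scaling it was 0.318, and with the compared groups only it was 0.0679. Gas5 fell from 64.7 ± 2.91 to 57.3 ± 6.78 CPM (SD, n = 3 each) with 1 overlapping library (log2 fold change -0.18, edgeR adjusted p 0.0285). Its adjusted p was 0.111 without WT UT replicate 1 and 0.197 without WT LPS replicate 1.

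Snhg12 fell from 6.91 ± 0.142 to 5.35 ± 0.894 CPM (SD, n = 3 each) and its groups did not overlap (log2 fold change -0.38, edgeR adjusted p 0.042). The call was lost with the replicate block (adjusted p 0.0609), with the filter at a mean CPM of 1 (0.0527), and without WT UT replicates 1, 2 or 3 or WT LPS replicates 1 or 2 (0.0609 to 0.191). Snhg1 (log2 fold change 0.23, edgeR adjusted p 0.0514), Snhg3 (0.14, edgeR adjusted p 0.378), Snhg5 (-0.20, edgeR adjusted p 0.116), Snhg8 (-0.08, edgeR adjusted p 0.599) and Snhg15 (-0.23, edgeR adjusted p 0.0914) did not pass. Leaving out WT UT replicate 3, KO UT replicate 1 or 3, or KO LPS replicate 1 brought the adjusted p of Snhg1 to between 0.025 and 0.0489, and leaving out WT LPS replicate 3 brought Snhg5 to 0.0448 and Snhg15 to 0.025. Snhg1 also passed with small structured RNA genes removed (0.0398) and with the filter at a mean CPM of 1 (0.0405). Upper-quartile scaling called Snhg5 (-0.38, edgeR adjusted p 0.00684) and Snhg15 (-0.41, edgeR adjusted p 0.00501), and RLE scaling called Snhg15 (edgeR adjusted p 0.0461). With the small RNA share as a covariate, 0 members were higher and 5 lower with LPS in WT, among them Snhg8 (-0.58, edgeR adjusted p 5.78e-04) and Snhg12 (-0.88, edgeR adjusted p 4.86e-04).

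In KO, 7 of 8 members fell with LPS and 0 rose, while 37.7% of all genes were called lower and 35.1% higher. The same 7 members had every LPS library below every UT library, an arrangement that 39.4% of all genes showed. The median log2 fold change was -0.64 for the members and -0.06 for all genes. By the fold minimum 1 member was called lower, against 19.3% of all genes, and this was Snhg8. Snhg8 fell from 28.6, 25.8 and 23.4 CPM in KO UT to 12.2, 11.6 and 10.1 CPM in KO LPS, a 2.3-fold decrease with every LPS library below every UT library (log2 fold change -1.20, SE 0.132, edgeR adjusted p 4.35e-08). Past the fold minimum were 2 members without KO UT replicate 3 and by 3 without KO LPS replicate 3.

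Snhg15 fell from 8.39, 8.11 and 7.79 CPM in KO UT to 3.87, 3.9 and 4.68 CPM in KO LPS, also without overlap (log2 fold change -0.96, SE 0.126, edgeR adjusted p 5.84e-07). Snhg12 fell by 0.90 on the log2 scale (SE 0.16, edgeR adjusted p 3.31e-05). Gas5 fell from 92.9 ± 2.21 to 53.1 ± 2.73 CPM (SD, n = 3 each), with the KO LPS libraries at 54.2, 55 and 50 CPM (log2 fold change -0.81, SE 0.0704, edgeR adjusted p 1.03e-09). Smaller decreases were measured for Snhg6 (log2 fold change -0.47, edgeR adjusted p 2.20e-04), Snhg5 (-0.46, edgeR adjusted p 0.00113) and Snhg3 (-0.32, edgeR adjusted p 0.0351). Snhg3 lost its call with RLE scaling (adjusted p 0.0603), with DESeq2 (0.0625), and without KO UT replicates 2 or 3 or KO LPS replicates 1 or 2 (adjusted p 0.0591 to 0.13). Snhg1 was at 15.4 ± 1.64 and 14.8 ± 1.52 CPM (SD, n = 3 each) and did not pass (log2 fold change -0.07, 95% interval -0.28 to 0.15, edgeR adjusted p 0.58), whereas upper-quartile scaling called it lower (-0.25, edgeR adjusted p 0.0372). With the small RNA share as a covariate, 1 of 8 members passed in this contrast, which was Gas5 (log2 fold change -0.36, edgeR adjusted p 0.0364).

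The KO UT libraries enter both the UT genotype comparison and the LPS response of KO, so these are not independent. The difference between the LPS responses was tested as an interaction (KO response minus WT response), which uses the same KO UT libraries. Of 8 members, 4 responded lower in KO and 0 higher, while 9.5% of all genes were called lower and 7.32% higher. These were Snhg8 (log2 difference -1.12, SE 0.187, edgeR adjusted p 2.91e-04), Snhg6 (-0.77, SE 0.14, edgeR adjusted p 6.22e-04), Snhg15 (-0.73, SE 0.175, edgeR adjusted p 0.00604) and Gas5 (-0.63, SE 0.0995, edgeR adjusted p 1.94e-04). Snhg6 was the member whose calls had opposite signs, higher with LPS in WT and lower in KO. Snhg12 (-0.53, edgeR adjusted p 0.129), Snhg3 (-0.46, edgeR adjusted p 0.11), Snhg1 (-0.30, edgeR adjusted p 0.184) and Snhg5 (-0.25, edgeR adjusted p 0.315) did not pass.

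Only Snhg8 also passed the fold minimum in the interaction (1.64% of all genes did so in this direction), and without WT LPS replicate 3 it was at -0.95, under that minimum. Without WT LPS replicate 1, 7 of 8 members passed at any fold, with Snhg3 (edgeR adjusted p 0.0235), Snhg5 (0.0353) and Snhg12 (0.0383) added. Snhg12 also passed without KO UT replicate 3 (0.0208). With the small RNA share as a covariate, 0 of 8 passed, and the values of Gas5 and Snhg8 were 0.03 (edgeR adjusted p 0.98) and 0.48 (edgeR adjusted p 0.637).

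The members were not alike in all groups. Over the 12 libraries, pairwise Pearson correlations of log2 CPM ran from -0.239 (Snhg1 and Snhg15) to 0.959 (Gas5 and Snhg8), with a median of 0.675 over 28 pairs. These are descriptions, since the libraries fall into 4 groups and share their scaling. Among 9085 protein-coding genes averaging at least 5 CPM, those most like Gas5 were the histone genes Hist4h4, Hist1h4k and Hist1h4h, each with r = 0.990. For Snhg8 they included Rpl10a (r = 0.983), a ribosomal protein gene, and Hint2 (r = 0.981). The gene most like Snhg15 was Phf1 (r = 0.975), that most like Snhg6 was Sec61b (r = 0.964), and that most like Snhg3 was Dnajc19 (r = 0.957). For Snhg12 it was the histone gene Hist2h2ac (r = 0.954) and for Snhg5 it was Mtln (r = 0.951). Snhg1 had no such close partner, with Ndufv2, a subunit of respiratory complex I, at r = 0.901.

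The snoRNAs inside the members were read where the table allowed. All 30 snoRNA genes were in the table, and 26 had 0 counts in all 12 libraries. Of the 30, 27 lie wholly within annotated exons of their host, where a read belongs to both genes. A count of 0 there is no measure of the snoRNA. Snora73a, Snord87 and 1 copy of Snora16a had at most 11 counts in a library, and only Snora73b passed the filter. Its sequence is shown because it is the 1 product of a member that could be compared with its host. Snora73b is an H/ACA snoRNA needed for cleavage of the ribosomal RNA precursor. It lies in an intron of Snhg3 at chr4:132352322-132352526 on the minus strand of GRCm38, and the 205 bases below are those of its GENCODE transcript, with the ACA box 3 bases from the 3′ end in capitals.
Snora73b: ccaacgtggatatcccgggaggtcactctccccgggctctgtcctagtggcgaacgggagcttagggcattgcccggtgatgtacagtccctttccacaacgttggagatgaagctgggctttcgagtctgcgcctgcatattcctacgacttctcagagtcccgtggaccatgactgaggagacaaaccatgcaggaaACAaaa

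The estimated fold changes of Snora73b were larger in size than those of its host, a contrast that was not tested. Alternative fits are not given for Snora73b here. It was at 11.6, 13.7 and 12.5 CPM in WT UT, 30.2, 29 and 26.2 CPM in KO UT, 32.5, 48.9 and 45.9 CPM in WT LPS, and 22.2, 11 and 11.2 CPM in KO LPS. WT UT and KO UT did not overlap (log2 fold change 1.17, SE 0.178, edgeR adjusted p 4.51e-05), nor did WT LPS and KO LPS, where KO was lower (-1.52, SE 0.185, edgeR adjusted p 1.22e-05). LPS raised it in WT (a log2 change of 1.74, edgeR adjusted p 1.57e-08) and lowered it in KO (-0.94, edgeR adjusted p 9.83e-05), and these responses differed by -2.69 (SE 0.257, edgeR adjusted p 7.40e-07). Snhg3 over the same contrasts was at 0.45, -0.01, 0.14 and -0.32, and whether host and snoRNA differed from each other was not tested. Snora73b is itself among the small structured RNAs whose share differed between the libraries.

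**Figure D4:**
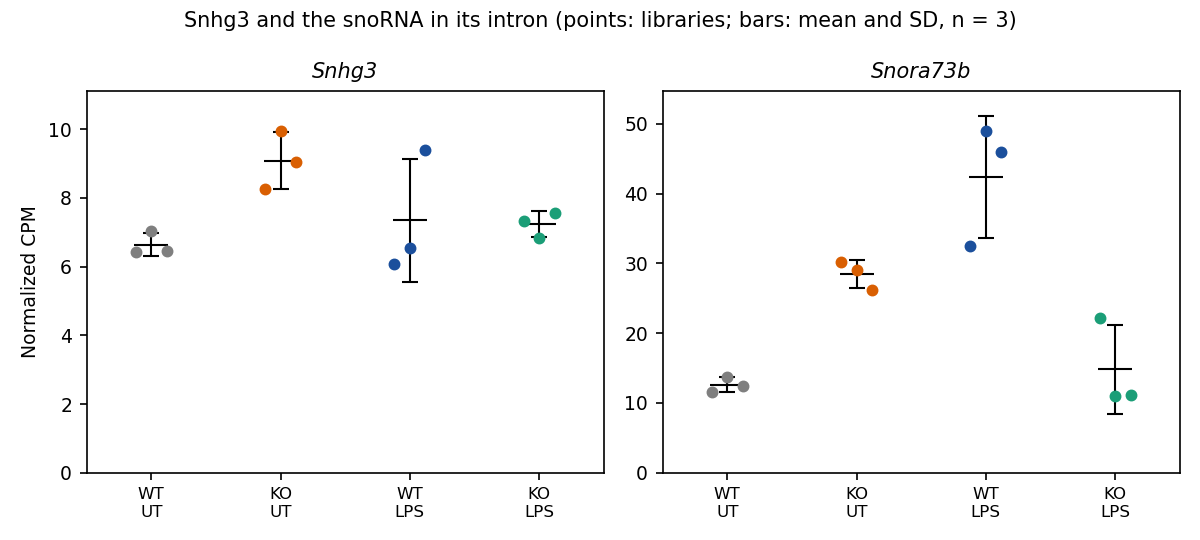
Normalized CPM (y axes, from 0, on different scales) of Snhg3 and of Snora73b in its intron, with points for libraries and bars for the mean and SD of 3 libraries in each of the 4 groups. Snora73b is lowest in WT UT and KO LPS and highest in WT LPS, while the Snhg3 means stay between 6.63 and 9.08 CPM.

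Other long noncoding snoRNA hosts, listed beside the members, gave 7 tested genes of 13. In KO UT 3 were higher than in WT UT and 0 lower, in KO LPS 1 was higher than in WT LPS, and 3 responded lower to LPS in KO than in WT, where 14.1%, 7.78% and 9.5% of all genes were so called. The UT count was 0 with RLE scaling, with DESeq2 and without WT UT replicate 3, KO UT replicate 1 or KO UT replicate 2. It was 1 with the replicate block, with upper-quartile scaling and without WT UT replicate 2, and with the small RNA share as a covariate 0 were higher and 1 lower. With that covariate the interaction gave 1 higher and 0 lower, and the LPS response of KO also gave 1 higher and 0 lower, against 1 and 4 without it. Epb41l4aos fell with LPS in WT cells (log2 fold change -0.97, edgeR adjusted p 6.27e-05) and more in KO (-1.98, edgeR adjusted p 3.80e-09), with an interaction of -1.01 (edgeR adjusted p 0.0112). Snhg20 followed with an interaction of -0.65 (edgeR adjusted p 0.0112) and Snhg16, listed as 1810032O08Rik, with -0.86 (edgeR adjusted p 0.0297). Zfas1 rose with LPS in both genotypes, from 47.6 ± 0.425 to 93 ± 15.6 CPM in WT (SD, n = 3 each) and from 52.8 ± 4.68 to 85.6 ± 4.93 CPM in KO (SD, n = 3 each). Its log2 fold changes were 0.96 (edgeR adjusted p 2.89e-09) and 0.70 (edgeR adjusted p 4.32e-07), and the difference between them did not pass (-0.27, edgeR adjusted p 0.167). Snhg17 and Dancr passed in no contrast. Snhg11, at 0.101 ± 0.0307 CPM in WT LPS and 0.35 ± 0.118 CPM in KO LPS (SD, n = 3 each), was the 1 gene called higher in KO LPS (edgeR adjusted p 0.048), on 2 to 12 counts a library. The count after LPS was 0 with the replicate block, with the compared groups only, with the filter at a mean CPM of 1, which removes Snhg11, and in most fits without 1 library. Without WT LPS replicate 1, 0 were higher and 2 lower. Snhg9, Snhg14 and Snhg18 did not pass the filter on low counts and were not tested.

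The 78 cytosolic ribosomal protein genes tested, many of which carry TOP starts and some of which also host snoRNAs, moved in the same contrasts. For these and the lists that follow, the largest changes named are those among called genes with a mean of at least 5 CPM. In KO UT 75 were higher than in WT UT and 0 lower (96.2% and 0%, against 14.1% and 9.69% of all genes). The median log2 fold change was 0.65, with Rps29 as the largest such increase (0.96, edgeR adjusted p 1.95e-05). In KO LPS 1 was higher and 1 lower than in WT LPS (1.28% each, against 7.78% and 6.54% of all genes). However, without WT LPS replicate 1 the counts were 1 higher and 59 lower, and with no filter 3 higher and 15 lower. With the small RNA share as a covariate they were 46 higher and 0 lower. With LPS, 46 rose and 3 fell in WT, at this level led by Rpl27 (0.71, edgeR adjusted p 1.92e-07) and Rpl3 (-0.47, edgeR adjusted p 3.99e-08), whereas 2 rose and 71 fell in KO, led by Rps28 (-0.97, edgeR adjusted p 2.25e-07). In WT these counts were 59% and 3.85% of the list, against 38% and 35.3% of all genes. In KO they were 2.56% and 91%, against 35.1% and 37.7%. The response was lower in KO for 72 of 78 (92.3%, against 9.5% of all genes), and Rps29 again had the largest difference (-1.15, edgeR adjusted p 2.84e-04). These directions turned with the small RNA share as a covariate, which gave 1 higher and 10 lower in UT, 34 higher and 3 lower in the LPS response of KO, and 15 higher and 0 lower in the interaction. In the LPS response of WT, 12 were higher and 8 lower with upper-quartile scaling, and 27 higher and 3 lower with the compared groups only.

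**Figure D5:**
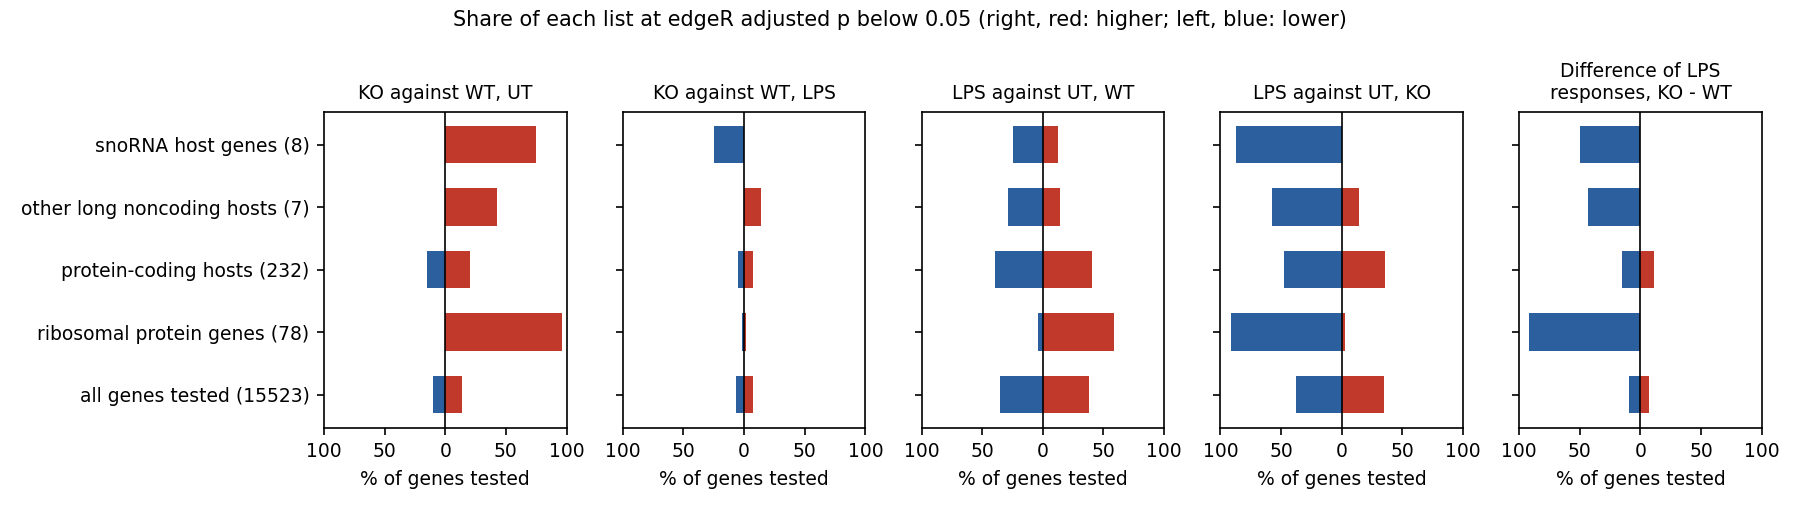
Percent of genes tested (x axis) that were higher (right, red) or lower (left, blue) at an edgeR adjusted p below 0.05 in the 5 comparisons, for the 8 host genes, 7 other long noncoding hosts, 232 protein-coding hosts, 78 ribosomal protein genes and all 15523 genes (y axis). The host genes reach 75% higher in UT and 87.5% lower in the LPS response of KO, and ribosomal protein genes reach 96.2% and 91%.

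Protein-coding snoRNA hosts were nearer to the background than the members, though above it in both directions in UT and in the interaction. Of 232 tested, 47 were higher and 34 lower in KO UT, with a median log2 fold change of -0.01 (20.3% and 14.7%, against 14.1% and 9.69% of all genes). To LPS, 26 responded higher and 35 lower in KO than in WT (11.2% and 15.1%, against 7.32% and 9.5%). Above 5 CPM, the largest UT changes were in Rps16 (0.84, edgeR adjusted p 1.15e-05) and in Top2a, a topoisomerase of dividing cells (-0.77, edgeR adjusted p 1.57e-06). In KO LPS 17 were higher and 12 lower (7.33% and 5.17%, against 7.78% and 6.54% of all genes). They were led by Iars, an aminoacyl-tRNA synthetase (0.55, edgeR adjusted p 1.20e-05), and by Cks2, a cell cycle gene (-0.80, edgeR adjusted p 3.99e-04). Without WT LPS replicate 1 these counts were 46 and 33. They were 7 and 6 without KO LPS replicate 1, 5 and 10 without WT LPS replicate 3, 6 and 10 without KO LPS replicate 3, 9 and 10 with the replicate block, and 8 and 11 with the compared groups only. With the small RNA share as a covariate, 16 were higher and 4 lower in UT, 2 higher and 1 lower in the interaction, and 51 higher and 67 lower in the LPS response of KO. With LPS, 94 rose and 91 fell in WT (40.5% and 39.2%, against 38% and 35.3% of all genes), and 83 rose and 111 fell in KO (35.8% and 47.8%, against 35.1% and 37.7%). Among hosts above 5 CPM, Mertk, a receptor for the uptake of dying cells, had the largest decrease in both (-2.35, edgeR adjusted p 1.59e-18, and -2.47, edgeR adjusted p 4.54e-19). In the same range Gsr, the glutathione reductase gene, had the largest increase in WT (2.59, edgeR adjusted p 1.12e-18) and March1, an E3 ubiquitin ligase gene, that in KO (2.93, edgeR adjusted p 7.13e-20).

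Of 20 tested genes for snoRNP proteins, which bind, mature and assemble snoRNAs, 4 were higher and 0 lower in KO UT (20%, against 14.1% of all genes), and 0 passed with the small RNA share as a covariate. Nop10, an H/ACA core protein, had the largest increase (log2 fold change 0.86, edgeR adjusted p 2.23e-06). With LPS it fell by 0.95 on the log2 scale in KO (edgeR adjusted p 2.84e-08), and its interaction was -0.83 (edgeR adjusted p 4.25e-04). In the model with the small RNA share as a covariate, 0 of 20 passed in the interaction, so the call of Nop10 was lost, and 2 rose and 3 fell in the LPS response of KO. In WT 5 rose with LPS, led by Nhp2 (0.61, edgeR adjusted p 3.17e-06), and 7 fell, above 5 CPM led by Naf1 (-0.94, edgeR adjusted p 1.61e-06), both of the H/ACA pathway. These counts were 25% and 35% of the list, against 38% and 35.3% of all genes. In KO 4 rose and 6 fell (20% and 30%, against 35.1% and 37.7%). Nolc1 was the 1 gene higher in KO LPS than in WT LPS (0.33, edgeR adjusted p 0.0279), 5% of the list against 7.78% of all genes. That count was 3 without WT LPS replicate 1 and 0 without WT LPS replicate 3 or any 1 of the KO LPS libraries.

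Most factors of nonsense-mediated decay rose with LPS in both genotypes. Of 23 tested, 17 rose and 4 fell in WT and 17 rose and 4 fell in KO, where 38% and 35.1% of all genes rose. Magohb, a subunit of the exon junction complex, rose by 3.75 on the log2 scale in WT (edgeR adjusted p 3.73e-16) and 2.63 in KO (edgeR adjusted p 1.49e-13), an interaction of -1.13 (edgeR adjusted p 4.42e-04). Dhx34 was the largest decrease in both, at -0.77 (edgeR adjusted p 1.24e-07) and -0.89 (edgeR adjusted p 1.72e-08). Between genotypes, 4 were higher and 4 lower in UT, with a median of -0.08 (17.4% each, against 14.1% and 9.69% of all genes). After LPS 1 was higher and 1 lower (4.35% each, against 7.78% and 6.54%). In UT, 1 was higher and 0 lower with the small RNA share as a covariate. The higher call after LPS was lost with upper-quartile scaling, the replicate block, the compared groups only and in 7 of the fits without 1 library. Upf1, the helicase at the center of the pathway, had an interaction of 0.33 (edgeR adjusted p 0.00884). The interaction called 1 higher and 3 lower of the 23 (4.35% and 13%, against 7.32% and 9.5% of all genes). With the small RNA share as a covariate it called 0, so the calls of Magohb and Upf1 were lost there. It called 7 in all with RLE scaling, 8 with DESeq2 and 9 without WT LPS replicate 1.

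Among 22 other translation genes with TOP starts, 10 were higher and 2 lower in KO UT (45.5% and 9.09%, against 14.1% and 9.69% of all genes). Fau, which encodes a ribosomal protein fused to a ubiquitin-like part, was the largest increase (log2 fold change 0.68, edgeR adjusted p 9.80e-06) and Pabpc1, the poly(A)-binding protein gene, the largest decrease (-0.35, edgeR adjusted p 0.00357). The UT counts were 4 higher and 0 lower with the small RNA share as a covariate. In KO LPS 5 were higher and 0 lower (22.7% and 0%, against 7.78% and 6.54% of all genes). Without WT LPS replicate 1 these counts were 12 and 3. With LPS, 7 rose and 11 fell in WT (31.8% and 50%, against 38% and 35.3% of all genes). In KO 4 rose and 14 fell (18.2% and 63.6%, against 35.1% and 37.7%). The interaction gave 3 higher and 7 lower (13.6% and 31.8%, against 7.32% and 9.5%), and 0 with the small RNA share as a covariate. Nap1l1, a histone chaperone gene, had the largest decrease with LPS in both genotypes (-1.62, edgeR adjusted p 1.57e-13 in WT). Ribosome biogenesis genes gave 4 higher and 3 lower of 24 in KO UT (16.7% and 12.5%, against 14.1% and 9.69% of all genes). In KO LPS 4 were higher and 0 lower (16.7% and 0%, against 7.78% and 6.54%). Between 2 and 4 in all passed in UT in 7 fits, with no filter and without any 1 of the UT libraries, and 0 with the small RNA share as a covariate. After LPS, 6 were higher and 1 lower without WT LPS replicate 1, and 0 to 2 passed without any other LPS library. The interaction gave 5 higher and 1 lower (20.8% and 4.17%, against 7.32% and 9.5% of all genes), with a median of 0.16. With the small RNA share as a covariate, 0 passed after LPS and 0 in the interaction. With LPS, 6 rose and 15 fell in WT (25% and 62.5%, against 38% and 35.3% of all genes). In KO 7 rose and 10 fell (29.2% and 41.7%, against 35.1% and 37.7%). Wdr12 was lowest (-1.80, edgeR adjusted p 6.78e-12 in WT) and Wdr43 highest (1.14, edgeR adjusted p 6.81e-14 in WT).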

How the data were processed

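Total RNA of 12 BMDM libraries was analysed. The authors made the libraries with a stranded total RNA kit of the TruSeq Globin type. They aligned the reads to GRCm38 with HISAT2 2.1.0 and SAMtools 1.17 after FastQC 0.11.9, and counted them with featureCounts 2.0.0. The deposited values are raw counts per gene. The annotation release, strand setting and multi-mapping rule are not given in the sources used here. Symbols came from GENCODE M21 by identifier without version (48144 of 48526 matched).

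Genes passing filterByExpr (minimum count 10, minimum total 15; 15523 genes, 99.96% of counts) were fitted with TMM scaling by the quasi-likelihood test of edgeR 4.0.16 (limma 3.58.1, R 4.3.3), with all 12 libraries in one model of 4 group means and no covariate. p-values were adjusted over all genes by the Benjamini-Hochberg method, and the fit was tested on simulated data. The SE was taken from the fold change and its F statistic. The study used DESeq2, run here (1.42.0) as an alternative. Other alternatives were RLE and upper-quartile scaling, removal of small structured RNA genes or of the 10 most-counted genes, no filter, a mean CPM of at least 1, the compared groups only, a covariate for the small RNA share, a replicate block, and each library left out.

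Members and gene lists were chosen with earlier results of these data known. Named genes were the members, the snoRNAs in them that passed the filter, all tested hosts of the other list, Tnf, per list and contrast the largest called increase and decrease at a mean CPM of at least 5, and the 3 protein-coding genes most correlated with each member. Genes overlapping members, low-count snoRNAs and markers were named besides. One gene that the rule names is not reported here. The batch number of each library equals its replicate number. Whether same-numbered libraries were paired is not stated in the sources used here. As a check, deviations from group means of same-numbered libraries were correlated: r ran from -0.0631 to 0.0373 over 18 pairs. Replicates may share cultures, so p-values measure the spread between these libraries. Replicate pairs differed by at least 3.77 times counting noise (chi-square per degree of freedom). Figures used matplotlib 3.10.9 in Python 3.11.15.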

Additional observations from a re-analysis of the deposited data

Results flagged for a closer look

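For 4 host genes the LPS response differed between genotypes by the interaction test of edgeR. The log2 difference (KO response minus WT response) was -1.12 for Snhg8 (adjusted p 2.91e-04), -0.77 for Snhg6 (adjusted p 6.22e-04), -0.73 for Snhg15 (adjusted p 0.00604) and -0.63 for Gas5 (adjusted p 1.94e-04). In each of these genes all 3 KO LPS libraries lay below all 3 KO UT libraries. The small RNA share fell from between 8.04% and 9.14% in KO UT to between 4.33% and 4.43% in KO LPS and stood at 4.97% to 7.71% in WT LPS, against 4.3% to 4.48% in WT UT. With that share as a covariate the 4 differences were 0.48, 0.31, 0.06 and 0.03 (edgeR adjusted p 0.637, 0.733, 0.982 and 0.98). The share varied within groups mainly in WT LPS, so this fit cannot separate the share from the groups. No conclusion is drawn from it.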

How the results depend on the processing

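Of 872 fold changes of the 8 host genes under alternatives, 775 kept their direction and side of the threshold, 40 fell below it, 22 rose past it and 35 changed sign. Most sign changes, 25, came with the small RNA share as a covariate. That covariate took the number of members called by adjusted p to 0 in UT, 0 between the LPS groups, 5 in the LPS response of WT (all lower), 1 in that of KO and 0 in the interaction, and by the fold minimum to 0 in the LPS response of KO and 0 in the interaction. With it, the UT log2 fold changes were -0.34 for Snhg3, -0.33 for Snhg5, -0.30 for Snhg6, -0.34 for Snhg8, -0.69 for Snhg12 and -0.39 for Snhg15. Between the LPS groups they were 0.10 for Gas5, 0.35 for Snhg3, 0.13 for Snhg5, 0.00 for Snhg6, 0.14 for Snhg8 and 0.41 for Snhg12. In the LPS response of WT, Snhg3 was at -0.23 and Snhg6 at -0.04, and in that of KO Snhg3 was at 0.46, Snhg5 at 0.04, Snhg6 at 0.27 and Snhg12 at 0.22. Interaction values were 0.03 for Gas5, 0.69 for Snhg3, 0.47 for Snhg5, 0.31 for Snhg6, 0.48 for Snhg8, 1.10 for Snhg12 and 0.06 for Snhg15. The cause was not tested, and in UT the share and the genotype cannot be told apart. With the compared groups only, 1 member was called between the LPS groups. Upper-quartile scaling moved the median of all genes from 0.05 to -0.14 in the LPS response of WT and from -0.06 to -0.24 in that of KO, gave 3 members past the fold minimum in KO, and put Snhg3 at -0.04 in WT. With no filter, Snhg3 was at 0.02 between the LPS groups.

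Leaving out 1 library gave 4 to 6 members called in UT, 1 to 4 between the LPS groups, 1 to 4 in the LPS response of WT, 6 to 7 in that of KO (1 to 3 by the fold minimum) and 4 to 7 in the interaction (0 to 1 by the fold minimum). Signs changed for uncalled values, with ranges of -0.13 to 0.20 (Snhg3) and -0.22 to 0.03 (Snhg12) between the LPS groups, -0.07 to 0.26 (Snhg3) and -0.25 to 0.10 (Snhg8) in the LPS response of WT, and -0.15 to 0.02 (Snhg1) in that of KO. The replicate block gave 5, 2, 2, 7 and 4 members called by adjusted p in the 5 comparisons, and of the members' calls it changed those of Snhg12 in UT (adjusted p 0.0617) and in the LPS response of WT (adjusted p 0.0609).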
